A study of Mus musculus with 24 samples.

Results

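Expression of the Ly6 surface antigens was followed across diet and rapamycin treatment in hepatocytes of aged mice. The set holds the 5 genes Ly6a, Ly6c1, Ly6c2, Ly6d and Ly6e, taken by gene name from the 55421 genes of the count and FPKM tables, and all 5 were present. The genes were selected on measured differences, since Ly6a was already known to be among the largest falls with rapamycin in these libraries. Libraries were made from hepatocytes of male C57BL/6J mice, isolated by liver perfusion in 2 steps, in 3 groups. From the age of 4 months, all on normal diet (ND), mice received vehicle (veh) or eRapa, rapamycin encapsulated and fed at 42 ppm. At 18 months the ND+veh group (n = 8) stayed on its diet, while HFD+veh (n = 7) and HFD+eRapa (n = 9) were moved for 9 weeks to a high-fat diet (HFD) with 60% of calories from fat. Rapamycin inhibits the kinase mTOR, a nutrient sensor. A group with eRapa on normal diet was not analysed here, so the action of eRapa without HFD was not measured, and HFD+eRapa differs from ND+veh in both diet and drug.

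Ly6 proteins are small, cysteine-rich proteins of the cell surface, held in the outer leaflet of the membrane by a glycosylphosphatidylinositol (GPI) anchor and folded into finger-like loops by disulfide bonds. In mice many of them serve as surface markers of blood cells. Ly6a encodes Sca-1, a marker of haematopoietic stem cells that is also found on activated lymphocytes and on endothelium. Ly6c1 and Ly6c2 encode the Ly6C antigens, used to tell apart classes of monocytes and also present on T cells and endothelium. Ly6d marks early steps of B cell development and is expressed in keratinocytes. Ly6e is expressed broadly, responds to interferon, and acts in placental cell fusion and in the restriction of coronavirus entry.

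All 5 genes are protein coding and lie on chromosome 15 within 349.9 kb of GRCm38. Ly6d (ENSMUSG00000034634.7) spans 74762056 to 74763620 on the minus strand. Ly6e (ENSMUSG00000022587.14) is the only one of the 5 on the plus strand and spans 74955051 to 74959905. Ly6a (ENSMUSG00000075602.10) spans 74994877 to 74998031, Ly6c1 (ENSMUSG00000079018.10) 75044018 to 75048830 and Ly6c2 (ENSMUSG00000022584.14) 75108158 to 75111970, all on the minus strand. Ly6c1 and Ly6c2 are near-identical, which bears on how their reads were divided. Their coding sequences matched at 387 of 396 bases (97.7%), against 83.8% for Ly6a with Ly6c1 and 83.6% for Ly6a with Ly6c2, while all pairs with Ly6d or Ly6e matched at 59.9% to 68.5% of aligned bases. The first 150 coding bases of the 3 closest genes are shown from the Gencode M21 transcripts of GRCm38, since 6 of the 9 bases by which Ly6c1 and Ly6c2 differ fall there. Capitals in Ly6c1 and Ly6c2 mark the bases that differ between them, and capitals in Ly6a mark the 16 bases that differ from Ly6c2.
Ly6c1: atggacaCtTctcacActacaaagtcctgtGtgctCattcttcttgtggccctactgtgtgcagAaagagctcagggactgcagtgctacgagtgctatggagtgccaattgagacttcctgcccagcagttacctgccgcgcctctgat
Ly6c2: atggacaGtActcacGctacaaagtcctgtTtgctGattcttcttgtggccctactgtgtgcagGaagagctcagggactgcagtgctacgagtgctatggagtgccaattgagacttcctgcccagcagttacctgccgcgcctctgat
Ly6a: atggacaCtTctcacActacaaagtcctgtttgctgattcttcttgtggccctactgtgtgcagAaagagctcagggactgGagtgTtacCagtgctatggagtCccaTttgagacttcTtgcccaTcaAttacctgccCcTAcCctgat

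The longest run of coding bases shared by Ly6c1 and Ly6c2 was 188. Of all 100-base windows of the Ly6c1 transcript 15.3% also occurred in Ly6c2, and 15.8% of those of Ly6c2 occurred in Ly6c1. No 100-base window of Ly6a, Ly6d or Ly6e occurred in another gene. At 50 bases the shared part was 36.7% in Ly6c1, 33.0% in Ly6c2 and 8.05% in Ly6a, and 0% in Ly6d and Ly6e. Counts and FPKM of Ly6c1 and Ly6c2 are therefore uncertain in how they split between both genes. Strand use in counting is not given in the sources used here.

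The promoters of Ly6c1 and Ly6c2 were compared because the proportion of both transcripts differed between animals. RefSeq promoter windows of GRCm38.p6 (250 bases before to 50 bases after the start) were matched for these 2 genes, at chr15:75048788-75049087 and chr15:75111922-75112221, both on the minus strand. They matched at 208 of 266 aligned bases (78.2%), less than the coding sequences did. Each is printed 5′ to 3′ with capitals at bases that differ or have no partner in the other.
Ly6c1 promoter: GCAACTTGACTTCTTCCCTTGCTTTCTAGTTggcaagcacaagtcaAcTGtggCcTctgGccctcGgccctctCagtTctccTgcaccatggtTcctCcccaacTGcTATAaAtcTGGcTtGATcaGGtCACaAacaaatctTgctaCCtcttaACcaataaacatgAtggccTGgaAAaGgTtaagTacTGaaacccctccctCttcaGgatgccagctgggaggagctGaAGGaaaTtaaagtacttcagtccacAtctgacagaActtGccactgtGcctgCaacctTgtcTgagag
Ly6c2 promoter: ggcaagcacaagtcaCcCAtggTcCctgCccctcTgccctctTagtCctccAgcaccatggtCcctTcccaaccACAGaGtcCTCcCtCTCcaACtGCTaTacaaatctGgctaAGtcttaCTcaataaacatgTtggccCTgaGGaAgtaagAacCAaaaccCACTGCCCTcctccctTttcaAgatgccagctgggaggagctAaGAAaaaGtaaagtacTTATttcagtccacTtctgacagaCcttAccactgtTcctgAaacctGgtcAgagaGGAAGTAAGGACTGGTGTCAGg

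Neither window held the gamma interferon-activated sequence TTCNNNGAA or the core of an interferon-stimulated response element (a pair of GAAA blocks with any 2 bases between them) on either strand. These motifs occurred in 8.30% and 3.44% of 32851 promoters. The TATA letters TATAAA, found in 13.6% of all promoters, occurred in the window of Ly6c1 and not in that of Ly6c2. The search covered these windows only, at 1 of the 2 start sites listed for each gene. In the Ly6c1 window the TATA letters lie nearer the 5′ end than the start, and whether they act was not tested.

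Libraries held 17.7 to 25.9 M counts (M, units of 1000000). Markers of hepatocytes were abundant, with all 11 measured marker genes above 0 in every library and Alb, encoding albumin, at a median of 94541 counts per M (CPM, scaled by TMM) in ND+veh, 94647 in HFD+veh and 77462 in HFD+eRapa. Markers of other liver cells were present as well. Summed over 16 macrophage and monocyte markers, the level ranged from 44.6 to 1402 CPM in ND+veh, from 160 to 4418 CPM in HFD+veh and from 17.1 to 987 CPM in HFD+eRapa. Summed over 14 endothelial markers it ranged from 109 to 575, from 160 to 903 and from 89.1 to 438 CPM. ND+veh replicate 4 stood apart from its group, with the lowest hepatocyte score (-1.30), the highest interferon score (1.29) and the highest level of each of the 5 Ly6 genes.

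Ly6e was well expressed in every animal. It ranged from 162 to 1247 CPM in ND+veh (median 293), from 536 to 1502 CPM in HFD+veh (median 733) and from 114 to 372 CPM in HFD+eRapa (median 253). All 9 HFD+eRapa animals lay below all 7 HFD+veh animals. HFD+veh and ND+veh overlapped only through ND+veh replicate 4, since the next ND+veh animal had 423 CPM. The mean of HFD+veh was 2.27-fold that of ND+veh, a log2 fold change of 1.19 (SE 0.373), and HFD+eRapa lay below HFD+veh by 3.94-fold, a log2 fold change of -1.98 (SE 0.365). Against ND+veh, HFD+eRapa differed by a log2 fold change of -0.79 (SE 0.349), with 8 of 9 animals under the ND+veh median, and by -0.27 without ND+veh replicate 4.

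Ly6a, the gene of Sca-1, varied widely between animals. It ranged from 1.19 to 69.3 CPM in ND+veh (median 6.79), from 7.25 to 372 CPM in HFD+veh (median 83.7) and from 1.26 to 6.71 CPM in HFD+eRapa (median 3.62). HFD+eRapa and HFD+veh did not overlap, although the gap was narrow, at 6.71 against 7.25 CPM. Within HFD+veh, replicates 1 and 2 were low with 7.25 and 8.68 CPM, replicate 5 had 18.1 CPM, and the others had 83.7 CPM or more. The log2 fold change was 2.71 (SE 0.815) for HFD+veh against ND+veh and -4.86 (SE 0.861) for HFD+eRapa against HFD+veh, where the mean fell from 107 ± 129 CPM (SD, n = 7) to 3.67 ± 2.06 CPM (SD, n = 9). HFD+veh replicate 6 held the highest value, and without it the first log2 fold change was 1.89 and Ly6a was no longer called. HFD+eRapa against ND+veh gave -2.15 (SE 0.778), with all 9 animals under the ND+veh median, but only -1.24 without ND+veh replicate 4 and -0.83 as a difference of median log2 CPM.

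Ly6c2, of the Ly6C antigens, was scarce outside HFD+veh. It ranged from 0 to 2.27 CPM in ND+veh (median 0.186) and from 0 to 1.68 CPM in HFD+eRapa (median 0.343), where 30 counts was the most in a library. In HFD+veh it ranged from 0.470 to 62.7 CPM (median 3.45). Of the 7 HFD+veh animals 5 lay above every ND+veh animal, and replicates 1 and 2 again lay low. The log2 fold change was 4.45 (SE 1.06) for HFD+veh against ND+veh and -4.95 (SE 1.04) for HFD+eRapa against HFD+veh. Without HFD+veh replicate 6, which had 62.7 CPM, both were smaller, at 3.19 and -3.66.

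Ly6c1 had the fewest counts, 473 over all libraries. It ranged from 0 to 2.58 CPM in ND+veh (median 0.0737), from 0.220 to 5.70 CPM in HFD+veh (median 3.03) and from 0 to 0.300 CPM in HFD+eRapa (median 0.113), where no library held more than 7 counts. ND+veh replicate 4 held the 2.58 CPM, the other 7 ND+veh animals held at most 0.237 CPM, and 6 of 7 HFD+veh animals lay above that. The log2 fold changes were 2.47 (SE 0.855) and -4.29 (SE 0.941). Ly6c1 entered the test through 6 HFD+veh libraries and ND+veh replicate 4, the 7 in which it reached the cutoff of 0.475 CPM, so it had to differ in order to be tested. Ly6c2 reached that cutoff in 12 libraries, 6 of them HFD+veh.

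The balance of Ly6c1 and Ly6c2 was not the same in all animals. Ly6c2 made up 82.2% (95% Wilson interval 78.1 to 85.7) of the counts of both genes in HFD+veh replicate 3, 82.2% (78.5 to 85.4) in replicate 4 and 95.3% (94.2 to 96.3) in replicate 6. In HFD+veh replicate 7 it made up 37.7% (30.9 to 45.1) and in ND+veh replicate 4 46.8% (39.1 to 54.6). The intervals of these 2 libraries lie below those of the 3 former ones, and these 2 libraries also had the highest Ly6e of their groups. The interval of HFD+veh replicate 1, given further on, lies under those 3 as well. Its Ly6e, however, was 642 CPM, less than the median of its group (733 CPM). Intervals cover counting error only, and 9 of 24 libraries reached the 20 summed counts required for a share. The others that did were HFD+veh replicate 1 with 45% (25.8 to 65.8), HFD+veh replicate 5 with 85.7% (76.7 to 91.6), ND+veh replicate 8 with 87.2% (73.3 to 94.4) and HFD+eRapa replicate 2 with 100% (88.7 to 100). By FPKM, too, Ly6c2 lay far above Ly6c1 in HFD+veh replicate 6 (129 against 17.5) and below it in replicate 7 (6.52 against 8.43). In ND+veh replicate 4 the order changed, with 6.24 FPKM for Ly6c2 and 5.74 for Ly6c1. The amount of Ly6c1 differed between FPKM and counts. HFD+veh replicate 6 had 73 counts of Ly6c1 and 17.5 FPKM, while replicate 7 had 109 counts and 8.43 FPKM.

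Ly6d was the gene not called by edgeR in either comparison with HFD+veh (limma voom called it from ND+veh to HFD+veh), and the one with a positive estimate for HFD+eRapa against ND+veh. It ranged from 0.114 to 94.6 CPM in ND+veh (median 2.68), from 4.36 to 159 CPM in HFD+veh (median 47.5) and from 3.03 to 60.2 CPM in HFD+eRapa (median 7.92). ND+veh replicate 4 alone held 94.6 CPM, and the other 7 animals of its group held at most 5.02 CPM. All 9 HFD+eRapa animals lay above the ND+veh median and 6 of 9 lay above every ND+veh animal other than replicate 4. The log2 fold changes were 2.02 (SE 1.03) for HFD+veh against ND+veh, -1.88 (SE 0.990) for HFD+eRapa against HFD+veh and 0.14 (SE 0.955) for HFD+eRapa against ND+veh. Without ND+veh replicate 4 the first became 4.60 and the third 2.78, and Ly6d was then called in both.

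**Figure D1:**
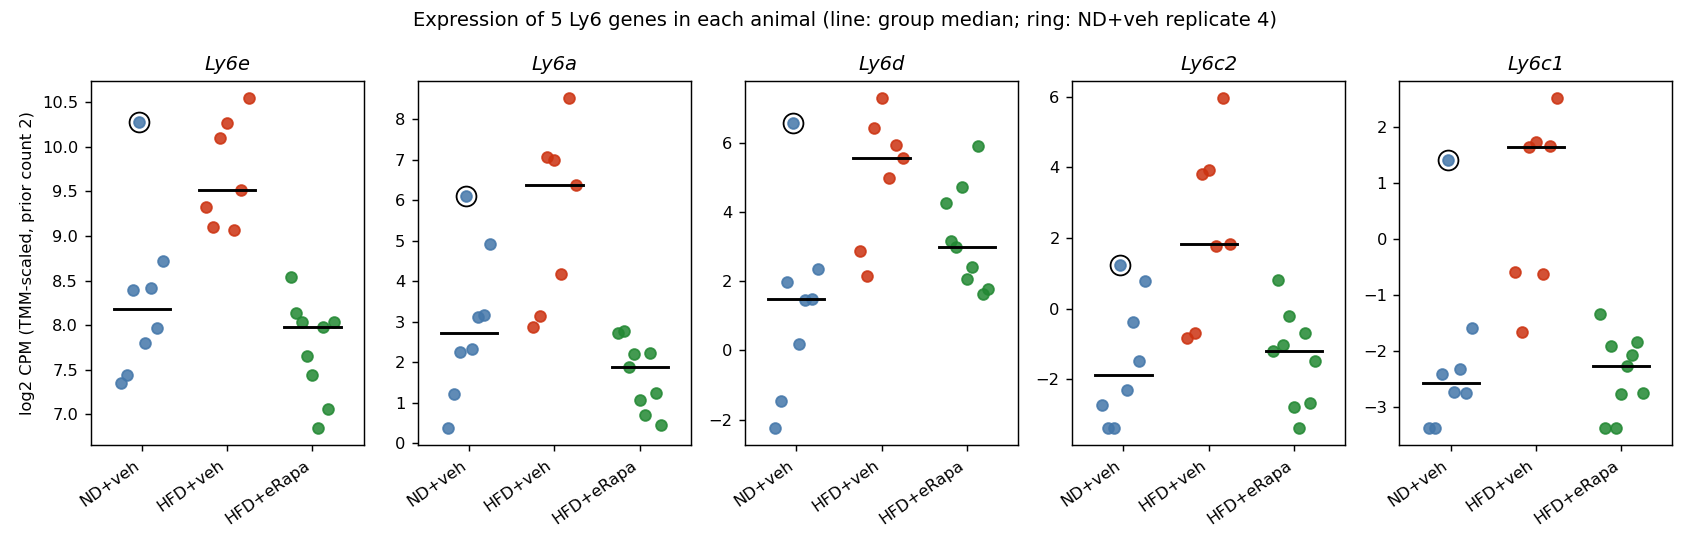
Level of each of the 5 Ly6 genes in each animal as log2 CPM (TMM-scaled, prior count 2), 1 point per animal in ND+veh (n = 8), HFD+veh (n = 7) and HFD+eRapa (n = 9), with a line at the group median and a ring around ND+veh replicate 4. For Ly6e and Ly6a all HFD+eRapa points lie below all HFD+veh points, and the ringed animal is the highest of ND+veh in all 5 panels.

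Levels of different genes were set side by side as FPKM, which is per length. Ly6e came first in every group, with mean FPKM ± SD of 611 ± 678 (ND+veh, n = 8), 1195 ± 482 (HFD+veh, n = 7) and 292 ± 105 (HFD+eRapa, n = 9). In HFD+veh the order by mean continued with Ly6a (167 ± 203), Ly6d (115 ± 114), Ly6c2 (28.8 ± 45.7) and Ly6c1 (7.18 ± 6.58). By median, Ly6c1 (8.43 FPKM) lay above Ly6c2 (6.52 FPKM) in that group. In ND+veh and HFD+eRapa Ly6d came second by mean, with 33.0 ± 81.4 and 29.2 ± 37.7 FPKM. Ly6a followed with 26.2 ± 41.2 and 5.11 ± 2.80 FPKM. The median reversed this order in ND+veh, at 9.88 FPKM for Ly6a and 5.01 for Ly6d, where replicate 4 held 123 and 234 FPKM. In HFD+eRapa the medians were 5.28 and 13.2 FPKM. Ly6c2 had 1.40 ± 2.13 FPKM in ND+veh and 0.877 ± 0.927 in HFD+eRapa, and Ly6c1 had 1.09 ± 1.93 and 0.312 ± 0.156. The animals of each pair of neighbours in these orders overlapped, except for Ly6e with the gene below it in HFD+veh and in HFD+eRapa. Ly6a and Ly6d overlapped in every group. Compared within each animal, however, Ly6d lay above Ly6a throughout HFD+eRapa, as in replicate 8 with 4.99 against 3.23 FPKM. In ND+veh and in HFD+veh the higher of these genes differed between animals. In 3 of the 4 libraries with 0 counts of Ly6c1 the FPKM of Ly6c1 was above 0, as the FPKM were estimated in another way than the counts.

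**Figure D2:**
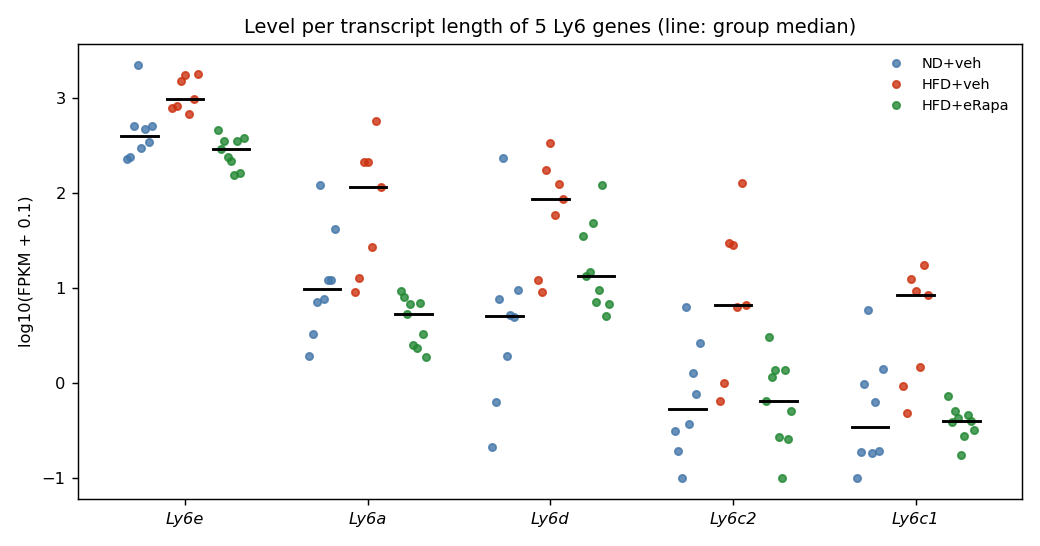
Level per transcript length of the 5 Ly6 genes as log10(FPKM + 0.1), 1 point per animal, with lines at group medians. Ly6e has the highest median of the 5 in all groups, and Ly6c1 and Ly6c2 have the lowest.

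The 3 comparisons were read from a single edgeR quasi-likelihood fit of 24 libraries, in which a gene with a Benjamini-Hochberg adjusted p under 0.05 is termed called. Of the 5 genes, 4 rose from ND+veh to HFD+veh by that criterion, all but Ly6d, where 25.9% of 13847 genes tested were called, 16.0% upward and 9.86% downward. Between HFD+eRapa and HFD+veh the same 4 were called, all downward, where 32.0% of genes were called, 10.9% upward and 21.1% downward. The count for HFD+veh against ND+veh depended on the fit. It was 1 (Ly6c2) in a fit of these groups alone, 2 (Ly6a and Ly6c2) without a filter on low counts, 4 by DESeq2 and 5 by voom. For HFD+eRapa against HFD+veh it was 3 in a fit of these groups alone, where Ly6c1 did not pass the filter, and 4 by each of the others. The genes were proposed with differences of this kind known, so nothing is read from these counts and no p is given for them. HFD+eRapa and HFD+veh did not overlap in 2 of the 5, Ly6a and Ly6e, and in 2.59% of all genes tested. The groups of the other comparisons overlapped in all 5, beside 2.44% of all genes without overlap for HFD+veh and ND+veh and 3.37% for HFD+eRapa and ND+veh. In HFD+eRapa against ND+veh edgeR called 0 of the 5, beside 13.5% of all genes (6.93% upward and 6.54% downward), with 2 at an unadjusted p under 0.05, while DESeq2 and a fit of these groups alone called 1, Ly6a, and voom 0. The median log2 fold change over all genes was 0.05, -0.04 and -0.03 in the 3 comparisons. HFD+veh enters both of the first comparisons and is shared by them.

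**Figure D3:**
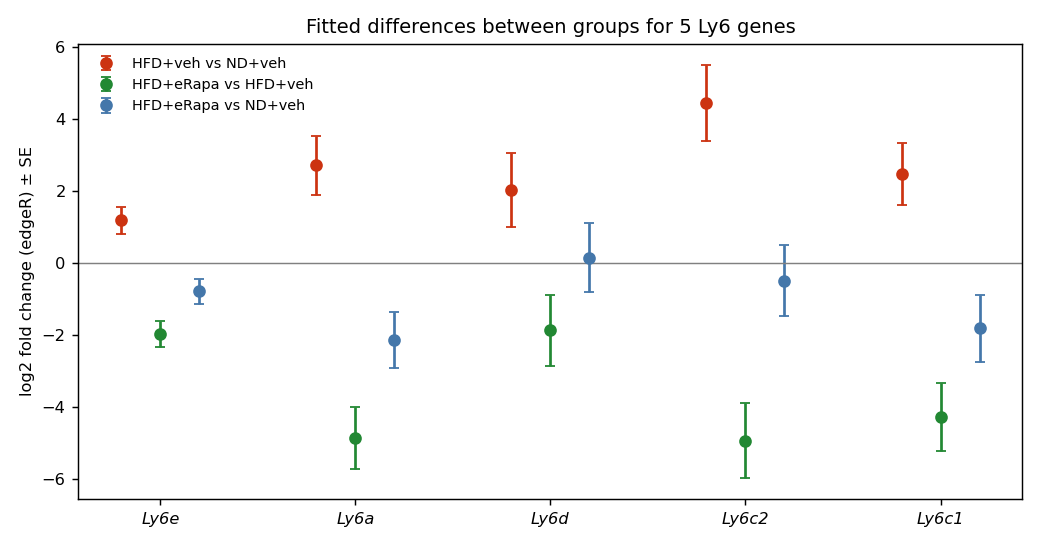
Fitted log2 fold change from edgeR (points) with its standard error (bars) for the 5 Ly6 genes in the 3 comparisons. Estimates for HFD+veh against ND+veh are all above 0 and those for HFD+eRapa against HFD+veh all below 0, with the widest bars in Ly6c2 and Ly6d.

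Several of these calls changed when a single library was left out. The number of the 5 called between HFD+veh and ND+veh was 2 without ND+veh replicate 1 or without any of HFD+veh replicates 3, 4, 6 and 7. It was 3 without any of ND+veh replicates 2, 3, 5, 6, 7 and 8. Calls over all genes in that comparison ran from 2106 to 4479 when each library was left out in turn. The log2 fold change of Ly6c1 ran only from 2.08 to 2.67 over the fits that included it. Ly6c2 was called in all of these fits, and Ly6a in all but the one without HFD+veh replicate 6. Between HFD+eRapa and HFD+veh, Ly6a, Ly6c2 and Ly6e were called whichever library was left out, and Ly6c1 in every fit that included ND+veh replicate 4, without which it did not pass the filter.

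The Ly6 genes moved together with markers of other cell types. Of 16 macrophage and monocyte markers 7 were called upward from ND+veh to HFD+veh and 14 downward from HFD+veh to HFD+eRapa, with median log2 fold changes of 2.28 and -2.75, beside 16.0% of all genes upward and 21.1% downward. Of 14 endothelial markers 3 rose, a share near that of all genes, and 14 fell, with medians of 0.69 and -1.39. Of 8 neutrophil markers 5 were tested, of which 3 rose and 2 fell. Of 8 B cell and plasma cell markers 3 were tested, of which 2 rose and 3 fell. Low-count markers could enter the test through HFD+veh, so these counts are given as a description. S100a8 had medians of 0.0497 CPM in ND+veh, 3.19 in HFD+veh and 0.247 in HFD+eRapa, against a filter cutoff of 0.475 CPM. Of 12 T and NK cell markers 1 was tested, and edgeR called it in 0 of the 3 comparisons, with 0 at an unadjusted p under 0.05 and 0 by DESeq2 or voom. Summed over all 12, however, the median was 1.24 CPM in ND+veh, 9.72 in HFD+veh and 1.84 in HFD+eRapa. The sum ranged from 0.522 to 74.6 CPM in HFD+veh and was not tested. In ND+veh 7 of the 8 neutrophil markers and 11 of the 12 T and NK cell markers were at 0 in at least 1 library. In bulk RNA, more cells of a type and more RNA per cell cannot be told apart. With the immune marker score of each animal (the mean z of the tested macrophage and monocyte, neutrophil, T and NK cell, and B and plasma cell markers) as a covariate, the log2 fold change for HFD+veh against ND+veh was 0.31 (SE 0.602) in Ly6a, 1.24 (SE 0.892) in Ly6c1, 0.79 (SE 0.590) in Ly6c2, -0.15 (SE 0.964) in Ly6d and 0.72 (SE 0.355) in Ly6e. For HFD+eRapa against HFD+veh it was -2.05 (SE 0.661) in Ly6a, -2.90 (SE 1.04) in Ly6c1, -1.30 (SE 0.596) in Ly6c2, 0.67 (SE 1.06) in Ly6d and -1.44 (SE 0.360) in Ly6e. In that fit 0 of the 5 were called in the former comparison and Ly6e alone in the latter. Ly6a was called between HFD+eRapa and ND+veh at a log2 fold change of -1.74 (SE 0.542). Over all genes, calls numbered 1203, 1031 and 2951 in HFD+veh against ND+veh, HFD+eRapa against HFD+veh and HFD+eRapa against ND+veh with the covariate. Without it they numbered 3584, 4432 and 1865.

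Genes of the interferon response, a pathway by which cells raise antiviral defence, moved in the same directions. Of 32 such genes 27 rose in HFD+veh against ND+veh, beside 16.0% of all genes, and 32 fell in HFD+eRapa against HFD+veh, beside 21.1%. Their median log2 fold changes were 2.02 and -2.48. Once the immune marker score was a covariate 5 and 4 of them were called, while calls over all genes fell to 1203 and 1031. Ifit2, whose product binds viral RNA, rose by a log2 fold change of 3.63 (adjusted p by edgeR = 0.00544) and changed by -4.35 with eRapa (adjusted p by edgeR = 0.00100). Oas3, which makes the second messenger that activates RNase L, rose by 3.29 (adjusted p by edgeR = 0.0215) and changed by -4.60 with eRapa (adjusted p by edgeR = 0.00255). Ifit3 rose by 2.91 (adjusted p by edgeR = 0.00612), and Oasl2, a relative of the Oas genes, changed by -4.59 with eRapa (adjusted p by edgeR = 0.00109). Between HFD+eRapa and ND+veh 1 of the 32 was called, Bst2, encoding the GPI-anchored restriction factor tetherin, at a log2 fold change of -1.24 (adjusted p by edgeR = 0.00114). Bst2 had a median of 239 CPM in ND+veh, 207 in HFD+veh and 124 in HFD+eRapa.

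How each Ly6 gene varied between animals of the same group was then compared with list scores, since the groups play no part there. Log2 CPM of the 5 genes was correlated with interferon, endothelial, immune and cholangiocyte scores within each group (60 tests), and 15 passed a Benjamini-Hochberg adjusted p of 0.05 by Pearson's r and 15 by Spearman's rho. With the interferon score in ND+veh all 5 genes passed by r (0.791 to 0.981) and 3 by rho, all but Ly6a and Ly6c2, and outside replicate 4 Ly6c1 had at most 5 counts there. In HFD+veh (n = 7) r was of like size, from 0.760 to 0.927, and 0 passed (exact permutation, adjusted p from 0.0565 to 0.127). With the cholangiocyte score 0 passed in any group. Ly6e passed with the interferon score by r and by rho in ND+veh and HFD+eRapa. In ND+veh r was 0.981 (exact permutation p = 9.92e-05, adjusted 0.00204) and rho 0.952 (exact permutation p = 0.00114, adjusted 0.0197), and r was 0.919 over the 6 animals left without the 2 farthest from the median score. In HFD+eRapa r was 0.949 (exact permutation p = 6.06e-05, adjusted 0.00204) and rho 0.967 (exact permutation p = 0.000165, adjusted 0.00992), with r at 0.954 over the 7 animals left. In HFD+veh r was 0.830 (exact permutation p = 0.0458, adjusted 0.0982) and rho 0.679 (exact permutation p = 0.11, adjusted 0.193), which did not pass. With the immune score, Ly6e had r of 0.583, 0.369 and 0.714 in ND+veh, HFD+veh and HFD+eRapa, none of which passed (exact permutation, smallest adjusted p = 0.0787).

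Ly6c2 passed with the immune score in all 3 groups. In ND+veh r was 0.861 (exact permutation p = 0.00779, adjusted 0.0389) and rho 0.85 (exact permutation p = 0.0115, adjusted 0.0492). In HFD+veh r was 0.935 (exact permutation p = 0.00139, adjusted 0.0119) and rho 0.929 (exact permutation p = 0.00675, adjusted 0.0435). In HFD+eRapa r was 0.934 (exact permutation p = 0.000102, adjusted 0.00204) and rho 0.917 (exact permutation p = 0.00131, adjusted 0.0197). Without the 2 animals farthest from the median score r was 0.836 (n = 6), 0.831 (n = 5) and 0.865 (n = 7). Ly6a passed with the immune score in HFD+veh (r = 0.855, exact permutation p = 0.0109, adjusted 0.0442, rho 0.964, exact permutation p = 0.00278, adjusted 0.0333) and in HFD+eRapa (r = 0.908, exact permutation p = 0.00189, adjusted 0.0142, rho 0.867, exact permutation p = 0.00451, adjusted 0.0435). In HFD+veh that relation rested on the 2 farthest animals, without which r was 0.477. In ND+veh Ly6a passed with the immune score by rho (0.857, exact permutation p = 0.0107, adjusted 0.0492) and not by r (0.794, exact permutation p = 0.0187, adjusted 0.0565). Ly6a also passed with the interferon score in ND+veh by r (0.938, exact permutation p = 0.000595, adjusted 0.00595) and not by rho (0.786, exact permutation p = 0.0279, adjusted 0.0838). With the endothelial score 4 relations passed by r, Ly6c2 in HFD+veh at 0.932 (exact permutation, adjusted p = 0.0159) and in HFD+eRapa at 0.835 (exact permutation, adjusted p = 0.0316), Ly6d in HFD+veh at 0.939 (exact permutation, adjusted p = 0.0310) and Ly6a in HFD+eRapa at 0.834 (exact permutation, adjusted p = 0.0430). By rho, Ly6c2 and Ly6d passed in HFD+veh, and Ly6a, Ly6c2 and Ly6e in ND+veh. Whether the genes or the scores differ from each other in these relations was not tested.

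**Figure D4:**
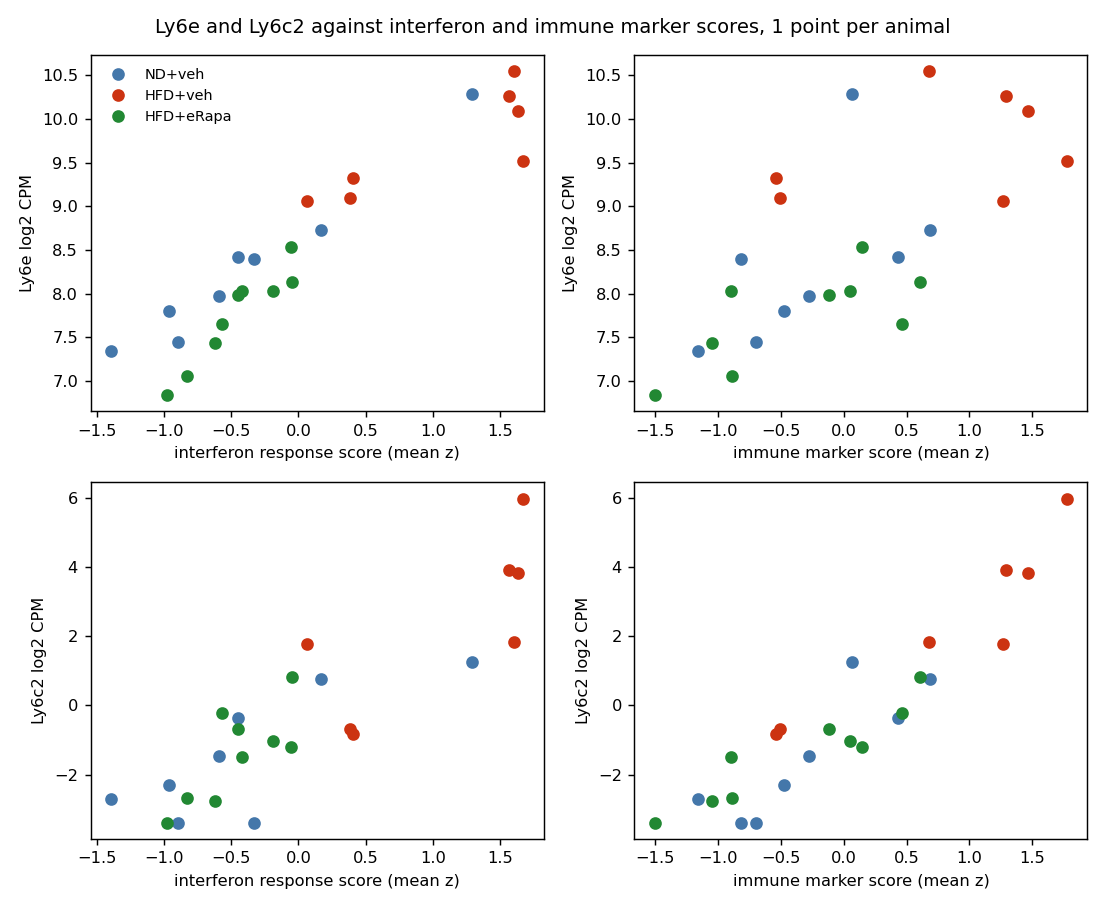
Log2 CPM of Ly6e (upper panels) and Ly6c2 (lower panels) against the interferon response score (left) and the immune marker score (right), each score being the mean z of its listed genes, 1 point per animal. Ly6e rises with the interferon score within ND+veh and HFD+eRapa, and Ly6c2 rises with the immune score within each group, with HFD+veh replicate 6 at the upper right.

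The 5 genes were also correlated with each other within groups (10 pairs in each, 30 tests), and 18 pairs passed by r and 8 by rho. In ND+veh all 10 passed by r, from 0.763 to 0.982, and without the 2 farthest animals r ran from 0.429 to 0.976. Replicate 4 was the highest of that group in all 5 genes. Some of these pairs did not pass by rho, as Ly6c2 with Ly6d (rho 0.647, exact permutation p = 0.0918, adjusted 0.153). In HFD+veh 6 passed by r, led by Ly6a with Ly6c2 (r = 0.957, exact permutation p = 0.000397, adjusted 0.00198, rho 0.964, exact permutation p = 0.00278, adjusted 0.0278). In HFD+eRapa 2 passed by r, Ly6a with Ly6c2 at 0.772 (exact permutation p = 0.0170, adjusted 0.0353) and Ly6c2 with Ly6e at 0.724 (exact permutation p = 0.0284, adjusted 0.0473), and neither passed by rho. Counts of Ly6c1 were at most 7 in that group, and none of its pairs passed there.

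Over all 24 libraries, group differences included, the genes with the most similar log2 CPM were Phf11d (r = 0.975), Ifit2 (0.964) and Oasl2 (0.960) for Ly6a, and Isg15 (0.940), Tgtp1 (0.934) and Rsad2 (0.931) for Ly6c1. For Ly6c2 they were Gbp9 (0.976), Ms4a4c (0.974) and Ifi211 (0.973), and for Ly6e Oas1g (0.955), Oas1a (0.954) and Nqo1 (0.942). For Ly6d they were Ubd (0.921), Vcpkmt (0.918) and Anxa5 (0.913). These values describe 24 points that share the 3 groups.

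Most relatives of the 5 genes were not detected at a testable level. Of 38 other genes of the Ly6 and uPAR family 6 passed the filter. Plaur, the urokinase receptor, rose in HFD+veh from a median of 0.318 to 3.29 CPM, a log2 fold change of 2.34 (SE 0.678, adjusted p by edgeR = 0.0163), and with eRapa it changed by -2.54 (SE 0.660, adjusted p by edgeR = 0.00592). Gpihbp1, which carries lipoprotein lipase to the capillary surface, rose by 1.04 (SE 0.362, adjusted p by edgeR = 0.0382) and changed by -1.21 with eRapa (SE 0.351, adjusted p by edgeR = 0.0113). These were 2 of 6 called in each comparison, beside 25.9% and 32.0% of all genes. Cd59a, an inhibitor of complement, was at a median of 73.3 CPM in ND+veh, 76.9 in HFD+veh and 82.4 in HFD+eRapa and was not called in any comparison (smallest adjusted p by edgeR = 0.152), and its paralogue Cd59b exceeded its ND+veh level in HFD+eRapa by 0.50 on the log2 scale (adjusted p by edgeR = 0.0267). Lynx1, a modulator of nicotinic receptors, had log2 fold changes of 0.97 and -1.11 that did not pass (adjusted p by edgeR = 0.111 and 0.0576). Of the untested relatives, Ly6i and Ly6g were picked for mention after their values were seen. Ly6i, next to Ly6a, had mean levels of 0.0956 CPM in ND+veh, 1.09 in HFD+veh and 0.0169 in HFD+eRapa, and Ly6g, the antigen that defines mouse neutrophils, had 4 counts over all 24 libraries.

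Synthesis of the GPI anchor was examined because Ly6 proteins carry it. Of 28 tested genes 5 rose and 1 fell in HFD+veh against ND+veh, 2 rose and 4 fell in HFD+eRapa against HFD+veh, and 2 rose in HFD+eRapa against ND+veh. These shares (21.4%, 21.4% and 7.14%) were below the 25.9%, 32.0% and 13.5% of all genes, and the medians were -0.03, -0.0045 and -0.05. Pigh, of the enzyme complex of the opening step, rose by 0.93 in HFD+veh (adjusted p by edgeR = 0.00242), and Pgap2, which acts in remodelling of the anchor lipid, by 0.75 (adjusted p by edgeR = 0.000410). From ND+veh to HFD+eRapa Pgap2 rose by 0.42 (adjusted p by edgeR = 0.0204). Pign, an ethanolamine phosphate transferase, rose by 0.74 (adjusted p by edgeR = 0.0196) and changed by -0.88 with eRapa (adjusted p by edgeR = 0.00433). Pigf, needed for ethanolamine phosphate transfer, changed by -0.73 with eRapa (adjusted p by edgeR = 0.0251). Mpdu1, required for the use of dolichol-linked mannose, exceeded in HFD+eRapa its level of HFD+veh by 0.51 (adjusted p by edgeR = 0.00543) and its level of ND+veh by 0.43 (adjusted p by edgeR = 0.0227).

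The changes were also set against the surrounding genes. Within 250 kb of the span of the 5 genes lie 21 other protein-coding genes, of which 4 passed the filter, Jrk, Them6, Lynx1 and Ly6g2. EdgeR called 0 of these 4 in each comparison, with 1, 1 and 0 at an unadjusted p under 0.05, DESeq2 called 0, 1 and 0, and voom called 0 in each. Ly6g2, which lies 218 kb from the start of Ly6a, had mean levels of 120 CPM in ND+veh, 113 in HFD+veh and 120 in HFD+eRapa. Its log2 fold changes were -0.09, 0.08 and -0.0023. Those of Lynx1 were larger, at 0.97 for HFD+veh against ND+veh and -1.11 for HFD+eRapa against HFD+veh. Neighbours under the filter, Ly6i among them, were not tested.

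**Figure D5:**
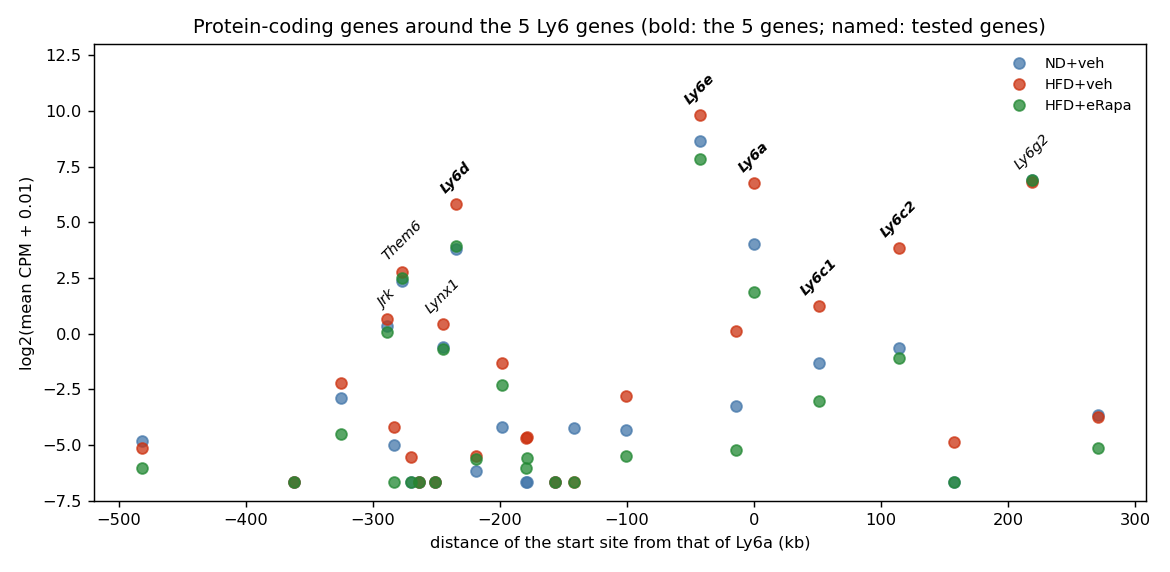
Mean level of each group as log2(mean CPM + 0.01) for the 26 protein-coding genes around the 5 Ly6 genes, by the distance in kb of each start site from that of Ly6a, where genes at 0 lie at the bottom. Ly6e, Ly6a, Ly6c1, Ly6c2 and Ly6d have HFD+veh on top, while the 3 points of Ly6g2 coincide.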

How the data were processed

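RNA of 24 hepatocyte libraries was analysed, 1 per animal, grouped and numbered as in the labels, which give 1 batch. The labels do not state that each replicate is a separate animal, so p-values measure the spread between these libraries. The authors aligned reads to mm10 with STAR, filtered them with SAMtools, counted raw reads per gene with HTSeq 0.11.2 (the deposited counts) and computed the deposited FPKM with Cufflinks. All columns matched a sample. Total counts ran from 17.7 to 25.9 M. No pair of libraries of a group agreed within sampling noise (chi-square per degree of freedom at least 11.3).

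Counts were tested in R 4.3.3 with edgeR 4.0.16 (filterByExpr, here 0.475 CPM in 7 libraries, TMM scaling, glmQLFit robust, glmQLFTest), 1 fit of 24 libraries and 3 groups, over the 13847 genes that passed, adjusted by Benjamini-Hochberg. Adjusted p-values printed for single genes come from that fit. Log2 CPM used a prior count of 2. A score is the mean z of the tested genes of a list. Correlations used two-sided exact permutation tests. Alternatives were DESeq2 1.42.0, limma 3.58.1 voom, other filters, scalings and sets of libraries, a replicate block and the immune score as a covariate. Scripts were tested on simulated data. The 5 genes and the lists were chosen with earlier results of these data known, Ly6a being among the largest falls with eRapa, so calls of the 5 genes in that fit are given as a description, without p-values, and support nothing. The 5 genes were always named. From each list other than cell type markers the 3 called genes with the largest absolute change in each comparison were named, with Cd59a, Gpihbp1, Plaur and Lynx1, the 3 genes most correlated with each Ly6 gene (predicted genes without a proper symbol skipped) and called neighbours. Ly6g2, Jrk and Them6 are named although none was called. Coordinates and transcripts are from Gencode M21 (GRCm38, the assembly of mm10) and sequences were aligned with Biopython 1.88. A protein table was not used here, and the promoters of Ly6a, Ly6d and Ly6e were not analysed here. Some genes of the lists are not reported here.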

Additional observations from a re-analysis of the deposited data

Results flagged for a closer look

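Of 27 sets of values tested for a sample far from the others of its group (Dixon's criterion), 3 had one, beside 1.35 that chance gives at 1 in 20. All 3 concerned ND+veh replicate 4. Its log2 CPM of Ly6c1 was 1.42, against -1.59 in the nearest animal of the group. Its log2 CPM of Ly6e was 10.28, against 8.72 in the nearest. Its cholangiocyte marker score was 0.457, against -0.49 in the nearest, and the summed level of the 8 cholangiocyte markers was 35.3 CPM, the highest of the group. What set this library apart was not tested.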

How the results depend on the processing

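The diet comparison is HFD+veh against ND+veh, the eRapa comparison HFD+eRapa against HFD+veh, and the joint comparison HFD+eRapa against ND+veh. Of 528 alternative values for the log2 fold changes of the 5 Ly6 genes 512 moved by less than 1 SD between animals. With the immune score as a covariate they were 0.31 (Ly6a) and 0.79 (Ly6c2) in the diet comparison and -2.05 (Ly6a), -2.90 (Ly6c1), -1.30 (Ly6c2) and 0.67 (Ly6d) in the eRapa comparison, and genes called over all genes numbered 1203, 1031 and 2951 in the diet, eRapa and joint comparisons. As differences of group medians of log2 CPM, Ly6c1 gave 4.22 in the diet and 0.31 in the joint comparison and Ly6c2 -3.01 in the eRapa comparison. Ly6c1 gave -2.64 from FPKM with a pseudocount of 1 (eRapa comparison) and -0.30 by voom (joint comparison). Without ND+veh replicate 4 and HFD+veh replicate 6 together, chosen after seeing the data, Ly6d gave 4.58 in the diet and 2.81 in the joint comparison, and 2300 genes were called in the diet comparison. The sign differed from the reported one in 1 of 177, 1 of 176 and 14 of 175 values of the diet, eRapa and joint comparisons. In the diet comparison 1866 genes were called by voom, 2333 in a fit of only these groups, 2106 without HFD+veh replicate 6 and 1585 when the log2 fold change had to reach 1 in size. In the eRapa comparison 2809 were called with 10 counts in every library and 2284 at that size, and in the joint comparison 711 were. Ly6c1, Ly6c2 and Ly6d had no value with 10 counts in every library, and Ly6c1 had none without ND+veh replicate 4 or in fits of only the groups compared other than the diet comparison, nor Ly6c2 in the joint one, where they failed the filter.

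Replicate numbers are shared between groups, but same-numbered libraries did not deviate together throughout. Their mean correlation was 0.316 over 7 pairs (5 above 0.1) in the diet comparison and -0.245 over 7 pairs (2 above 0.1) in the eRapa comparison. In the joint comparison it was -0.203 over 8 pairs (2 above 0.1). The numbers were not used to pair the samples in the main fit, although this check cannot exclude a link between same-numbered libraries. With the replicate block, Ly6c1 gave -0.44 in the joint comparison, Ly6d was called in the diet comparison, and 2532 genes were called in the eRapa comparison. The block gave 1 and 0 family genes in the diet and eRapa comparisons, and 2 and 1 GPI genes in the eRapa and joint comparisons.

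Leaving out each library in turn gave log2 fold changes in the diet comparison of 1.89 to 3.57 for Ly6a, 2.08 to 2.67 for Ly6c1, 3.19 to 5.12 for Ly6c2, 1.47 to 4.60 for Ly6d and 1.01 to 1.68 for Ly6e. In the eRapa comparison they were -5.07 to -4.04, -4.65 to -3.90, -5.51 to -3.66, -2.53 to -1.32 and -2.10 to -1.80, and in the joint comparison -2.33 to -1.24, -2.18 to -1.65, -1.05 to 0.23, -0.51 to 2.78 and -0.92 to -0.27. Genes called numbered 2106 to 4479, 3269 to 5061 and 1462 to 2232 over all genes, 1 to 2, 2 to 3 and 0 to 1 in the family, 4 to 7, 3 to 9 and 1 to 4 in GPI synthesis, 20 to 29, 31 to 32 and 1 to 3 in the interferon list, and 0 to 1, 0 to 1 and 0 to 0 among the neighbours.

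Of the family genes called (2, 2 and 1), voom called 0 in the diet and 1 in the eRapa comparison, the fit without a filter 5 in the eRapa and 0 in the joint comparison, the filter of 10 counts 1 in the diet and 1 in the eRapa comparison, the covariate 0 in both, the fit of only 2 groups 1 and the fit without both libraries 1 in the diet comparison, and the fold limit 0 in the joint comparison. Of GPI genes (6, 6 and 2), voom called 3, 3 and 5, the covariate 3, 0 and 5, the fold limit 0, 0 and 0, no filter 3 in the eRapa and 1 in the joint comparison, only 2 groups 3 in the eRapa comparison, and without both libraries 4 in the joint comparison. Of interferon genes (27, 32 and 1), the covariate called 5, 4 and 3, and in the joint comparison DESeq2 called 3, voom 2, only 2 groups 2 and without both libraries 2. Of the neighbours (0, 0 and 0), no filter called 2 in the diet and 3 in the eRapa comparison, without both libraries 1 and 1, and in the eRapa comparison DESeq2 and only 2 groups 1 each. The cause of these shifts was not tested. Depth limits Ly6c1 and Ly6c2, which had 0 to 82 and 0 to 72 counts in ND+veh and 0 to 7 and 0 to 30 in HFD+eRapa.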

Other observations

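Markers of further cell types were measured beside the Ly6 genes. Of 8 stellate cell markers 2 rose in HFD+veh against ND+veh, 8 fell in HFD+eRapa against HFD+veh and 4 were lower in HFD+eRapa than in ND+veh, with median log2 fold changes of 0.74, -2.16 and -1.48. Of all genes 16.0% rose and 9.86% fell in the first comparison, 10.9% rose and 21.1% fell in the second and 6.54% were lower in the third, so that 2 of 8 is near the share of all genes. Of 5 tested cholangiocyte markers 4 rose with HFD, and with eRapa on HFD 1 rose and 2 fell. Here too, low-count markers could enter the test through HFD+veh. Their summed level ranged from 15.6 to 35.3 CPM in ND+veh, from 24.9 to 379 CPM in HFD+veh and from 27.3 to 71.5 CPM in HFD+eRapa. Of 11 hepatocyte markers 2 fell with HFD and 2 rose with eRapa on HFD, beside 9.86% and 10.9% of all genes, while HFD+eRapa against ND+veh gave 0 called by edgeR, 1 at an unadjusted p under 0.05, and 0 called by DESeq2 and by voom. In HFD+veh the lowest level of each of Ly6a, Ly6c1, Ly6c2 and Ly6d was in replicate 1 or 2. Ly6c1 of replicate 5 (0.555 CPM) was nonetheless under that of replicate 1 (0.574 CPM). Replicates 1 and 2 had the lowest immune (-0.543 and -0.508), endothelial (-0.645 and -0.491) and cholangiocyte (-0.083 and -0.268) scores of that group. They also had its highest hepatocyte scores (0.958 and 0.415). The lowest Ly6e belonged to replicate 5, which had an immune marker score of 1.27 and the lowest interferon score (0.0605). Whether any of these scores accounts for the levels was not tested.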
